A study of Mus musculus with 12 samples.

Results

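The genes described here are the replication-dependent histone genes of mouse, the families that supply the linker histone H1 and the core histones H2A, H2B, H3 and H4 while DNA is copied. Members were the rows of the count table whose symbol begins with Hist1h, Hist2h, Hist3h or Hist4h and that had at least 10 counts in 3 or more of 12 libraries. Of 69 rows with such a symbol, 56 met this rule, out of 24982 rows in all. They comprise 5 linker H1 genes, 14 H2A, 15 H2B, 10 H3 and 12 H4 genes. The cells were B-cell acute lymphoblastic leukaemia (B-ALL) lines of mouse. The DKO line lacks both alleles of Bax and Bak, the effectors of mitochondrial apoptosis, and the TKO line lacks Mcl-1 in addition. Each line was grown in regular or low glucose medium for 24 h, and 3 libraries were made per line and medium. The groups are thus DKO regular, DKO low glucose (Bax-/-, Bak-/-), TKO regular and TKO low glucose (Bax-/-, Bak-/-, Mcl-1-/-). Every group lacks Bax and Bak, so no library shows these genes in cells with an intact apoptotic pathway. The labels describe a single line per genotype, so the loss of Mcl-1 and any other difference between the lines cannot be told apart. Nothing in them ties the 3 libraries of a group to cultures of their own, so p-values measure the spread between these libraries, which may be technical.

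Core histones form the protein spool around which DNA is wound, and linker H1 binds where the DNA enters and leaves it. Replication-dependent histone mRNAs are made mainly in S phase, have no introns as a rule, and end in a conserved stem-loop instead of a poly(A) tail. The stem-loop is bound by SLBP and sits just upstream of the cut made by the U7 snRNP, and the mRNAs are degraded when DNA synthesis stops. Some of these genes are also known to give polyadenylated transcripts. The kit named in the labels captures mRNA through its poly(A) tail. The values below therefore count the histone RNA that such a library retains, which may be a small and unequal part of each gene's mRNA, and the retained part was not measured. In bulk RNA, fewer cells in S phase and less histone RNA per cell cannot be told apart.

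All 56 members were matched to GENCODE transcripts on GRCm38, the same assembly as mm10. For each member the longest protein-coding transcript was used, or the longest of any type where none was protein-coding. Other transcripts of a member were not used for its stem-loop or its annotated end. The 3′ ends are shown because they decide how such an mRNA meets the poly(A) capture. An annotated 3′ UTR of at least 16 bases was present for 42 members, and 37 of these held the histone stem-loop, searched as 2 arms of 6 bases that pair without a mismatch around a loop of 4 bases. The first arm had to be GG and 4 pyrimidines, and the loop T, 2 pyrimidines and any base but G. It began 21 to 54 bases after the stop codon (median 31). Searched in every protein-coding transcript with such a UTR, the same pattern matched 65 of 44343 (0.147%). These came from 56 genes, of which 10 have no Hist symbol. Capitals mark the arms of the stem and lower case the loop. The most frequent forms read as follows.
Hist1h1c, Hist1h1d, Hist1h1e, Hist1h2bm, Hist3h2a, Hist3h2ba and 13 others: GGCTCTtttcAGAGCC
Hist1h4c, Hist1h4d, Hist1h4f, Hist1h4h, Hist1h4n and Hist4h4: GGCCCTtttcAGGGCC
Hist1h2bb, Hist1h2bk, Hist1h3c, Hist1h3e and Hist1h3f: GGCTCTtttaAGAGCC
Hist1h4i and Hist2h4: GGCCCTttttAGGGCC
Hist1h4b and Hist1h4j: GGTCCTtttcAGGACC
Forms beginning with GGCC or GGTC were found in H4 genes, and those beginning with GGCT in H1, H2A, H2B and H3 genes. The 5 members with a 3′ UTR and no match were Hist1h1a, Hist1h2bc, Hist1h2bp, Hist2h2be and Hist2h3b. The annotated transcript ran at least 100 bases beyond the stem-loop in 20 of the 37 members. A poly(A) signal, AATAAA or ATTAAA within 50 bases of the annotated end, was found in 13 members: Hist1h1c, Hist1h2ae, Hist1h2be, Hist1h2bp, Hist1h4a, Hist1h4h, Hist1h4i, Hist1h4j, Hist2h2be, Hist2h4, Hist3h2a, Hist3h2ba and Hist4h4. Hist1h1c, for example, has the stem-loop 24 bases after its stop codon and a further 840 annotated bases that end 26 bases after a poly(A) signal begins.

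The members lie in few clusters. On chromosome 13, 46 genes fall between 21715763 and 23764406. A further 6 lie on chromosome 3 between 96219865 and 96270132, 2 on chromosome 11 between 58948920 and 58956830, and Hist4h4 lies on chromosome 6. In GENCODE Hist1h2al stands apart at chr13:51202727-51203065, as a processed pseudogene, which may not be the gene that the authors counted. RefSeq (GRCm38.p6) promoters, 250 bases before to 50 after the annotated start, were found for 50 members. They were searched on both strands for CCAAT (bound by NF-Y), TATAAA, the octamer ATTTGCAT (bound by Oct-1) and AAACACA, a box described for H1 promoters. CCAAT occurred in 42 of 50, against 37.4% of all 32851 promoters. It was found in each of the 5 H1, 13 H2A, 13 H2B and 8 H3 promoters and in 3 of 11 H4 promoters (27.3%). TATAAA occurred in 31 of 50, against 13.6% of all. The octamer occurred in 6 of 13 H2A and 5 of 13 H2B promoters and in 1.74% of all. AAACACA occurred in 4 of 5 linker promoters and in 7.18% of all. The 150 bases before the start are printed for a linker and a core gene that fell in DKO cells in low glucose (Hist1h1e and Hist1h2bm) and for a linker and a core gene that did not (Hist1h1c and Hist3h2a), with these matches in capitals.
Hist1h1e, chr13:23622559-23622708, minus strand: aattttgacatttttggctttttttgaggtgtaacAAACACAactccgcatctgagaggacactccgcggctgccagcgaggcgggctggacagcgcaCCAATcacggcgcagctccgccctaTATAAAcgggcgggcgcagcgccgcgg
Hist1h1c, chr13:23738657-23738806, plus strand: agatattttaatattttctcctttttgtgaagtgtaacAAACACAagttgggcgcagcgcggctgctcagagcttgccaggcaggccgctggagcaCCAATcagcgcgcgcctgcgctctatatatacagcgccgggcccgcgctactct
Hist1h2bm, chr13:21721894-21722043, plus strand: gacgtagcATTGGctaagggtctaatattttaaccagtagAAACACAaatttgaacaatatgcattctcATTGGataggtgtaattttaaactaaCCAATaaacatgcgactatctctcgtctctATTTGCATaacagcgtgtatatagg
Hist3h2a, chr11:58954535-58954684, plus strand: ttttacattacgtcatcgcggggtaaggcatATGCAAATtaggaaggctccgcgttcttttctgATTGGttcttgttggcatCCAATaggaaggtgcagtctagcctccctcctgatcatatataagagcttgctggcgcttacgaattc
Both linker promoters hold an AAACACA box and a CCAAT box, and TATAAA is found in the printed stretch of Hist1h1e alone. A match is a description of letters, not a measured binding site.

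The libraries held 22190736 to 56260867 counts, and the 56 members together 0.00741% to 0.0184% of them. Mcl1, the gene deleted in TKO, stood at 239 ± 2.51 and 270 ± 3.59 CPM (counts scaled to library size; mean ± SD, n = 3) in DKO in regular and low glucose medium, and at 0.406 ± 0.0619 and 0.255 ± 0.079 in TKO. B-lineage markers summed to 4370 to 4830 CPM in every library, but single markers differed between the lines. In regular medium 4 of 10 were higher and 3 lower in TKO, where 28.3% and 33.4% of all genes tested were. Dntt, the terminal transferase of lymphoid precursors, stood at 400 ± 8.42 CPM in DKO and 23.8 ± 0.412 in TKO, and Igll1, of the surrogate light chain, at 743 ± 5.07 and 422 ± 26.8. Rag1, of the V(D)J recombinase, was 3.39-fold and Pax5, a B-lineage transcription factor, 1.72-fold higher in TKO. T cell markers summed to 0.043 to 0.19 CPM, erythroid markers to at most 0.0339 and stromal markers to at most 0.0549. Myeloid markers summed to 3.63 to 4.51 CPM in DKO and to 0.472 to 1.3 in TKO, with 2 of 6 at 0 throughout, and the part of these markers in the differences between lines was not tested. Of the 13 rows below the rule, 9 had no count in any library. They include Hist1h2ao, Hist1h2ap, Hist1h2bq, Hist1h2br, Hist2h2aa1, Hist2h2aa2, Hist2h3c1 and Hist2h3c2. How reads with several matches were counted is not given, so a count of 0 does not show that such a gene is silent. The 4 rows below the rule that had counts were Hist1h1t, the testis linker histone, Hist1h2ba, its H2B counterpart, Hist1h4m and the pseudogene Hist3h2bb-ps. They had at most 9 counts in a library. Just inside the rule, the third-highest library had 11 counts for Hist2h2ab and 12 for Hist1h2bp. All 56 members passed the low-count filter of the test and were among the 11988 genes tested. On the authors' deposited scale per gene length (TPM, scaled to gene length and library size), the highest mean levels over the 12 libraries were 142 TPM for Hist1h4i, 96.1 for Hist1h4d and 44.0 for Hist1h1e. The order depends on the group, since in DKO low glucose Hist3h2a stood at 46.5 to 49.9 TPM and Hist1h1e at no more than 28.4. It also depends on the authors' gene lengths, which are not given in the sources used here: 1 CPM stood for 3.96 to 23.8 TPM among H4 genes and for 3.48 to 3.97 TPM among H1 genes.

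Nearly all histone genes fell in DKO cells in low glucose. With edgeR's quasi-likelihood test and Benjamini-Hochberg adjustment, 48 of 56 members fell at adjusted p under 0.05, where 31.1% of all genes tested fell and 62.7% changed in either direction. The median log2 difference was −1.26 over the members and 0.01 over all genes tested. The falls comprised 4 of 5 H1 genes (median of the class −1.29), 10 of 14 H2A (−1.28), 13 of 15 H2B (−1.37), all 10 H3 (−1.15) and 11 of 12 H4 (−1.20). None was called higher by edgeR. A single member, Hist1h1c, had an unadjusted p under 0.05 in that direction, and DESeq2 called it higher. The 3 libraries of the groups did not overlap for 49 members, all lower in low glucose, against 36.5% of all genes tested. The 8 members without a call were Hist1h1c, Hist1h2ac, Hist1h2al, Hist1h2bp, Hist1h4h, Hist2h2ab, Hist3h2a and Hist3h2ba.

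The sums over each class compare linker and core genes, with most weight on genes of high CPM. Hist1h1e, Hist1h4i, Hist2h2be, Hist1h1c and Hist1h1b held 32.4% of the members' CPM. The 5 linker genes summed to 36.5, 45.6 and 35.5 CPM in DKO regular libraries and to 16.9, 23.7 and 25.6 CPM in low glucose, a log2 ratio of means of −0.83. Hist1h1c, not called lower, held 7.84 of the mean 39.2 CPM in regular medium and 9.61 of 22.0 CPM in low glucose. The 51 core genes summed to 114, 131 and 106 CPM in regular medium and to 53.9, 67.2 and 67.6 CPM in low glucose, a log2 ratio of −0.89. In both classes every low glucose library lay below every regular library. In TKO the linker sum was 45.0, 38.9 and 38.1 CPM in regular medium and 32.4, 27.5 and 30.8 CPM in low glucose (log2 ratio −0.43). The TKO core sum was 141, 120 and 125 CPM in regular medium and 95.9, 84.2 and 92.0 CPM in low glucose (log2 ratio −0.51). The groups again did not overlap. Linker genes made up 25.1% ± 0.79 (SD, n = 3) of the members' summed CPM in DKO regular, 25.8% ± 1.82 in DKO low glucose, 24.0% ± 0.538 in TKO regular and 25% ± 0.339 in TKO low glucose. Among the core classes in DKO, H3 had the largest log2 ratio of sums, −1.23, and H2A the smallest, −0.75, close to −0.76 for H2B. The order by gene median was different. There H3 had the smallest fall, −1.15, and H2B the largest, −1.37, with H2A at −1.28. Hist3h2a, the H2A gene of highest mean CPM, was not called lower and gave 5.89, 6.21 and 6.52 CPM of the H2A sums in low glucose. The order of the sums therefore depends on single genes of high CPM. No test was made on the sums. Within DKO low glucose, library 1 was the lowest of the 3 for 40 of 56 members, and the members summed to 70.8 CPM there against 90.9 and 93.2 CPM in libraries 2 and 3. The 28 DNA replication genes described further on summed to 3390, 3410 and 3380 CPM in the same libraries.

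**Figure D1:**
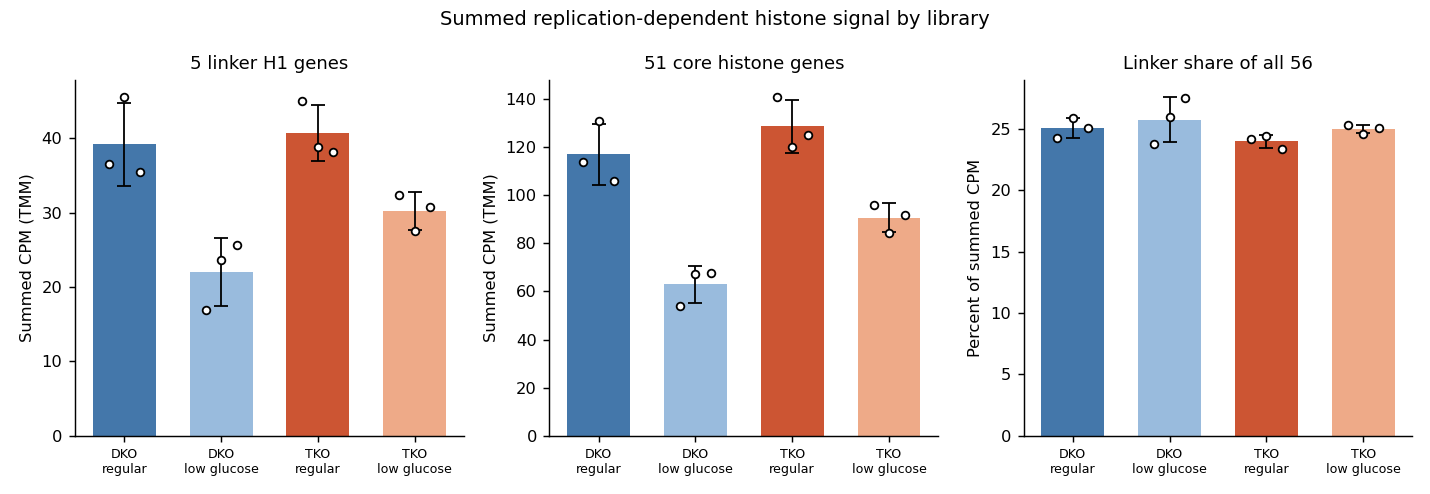
Summed CPM (TMM-scaled) of the 5 linker and the 51 core histone genes, and the linker share in percent, in each of the 12 libraries. Bars are means, error bars SD (n = 3) and points libraries; both sums are lowest in DKO low glucose, while the linker share lies between 23.4% and 27.5% in every library.

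Linker genes other than Hist1h1c fell together in DKO. Hist1h1e, a main somatic linker histone, stood at 14.9, 18.9 and 13.6 CPM in regular medium and at 4.22, 6.4 and 8.24 CPM in low glucose, and fell by 1.33 ± 0.18 (SE) on the log2 scale (adjusted p 1.7e-05, edgeR). Hist1h1b stood at 6.41, 7.24 and 6.04 CPM and at 1.12, 2.47 and 2.75 CPM, and fell by 1.66 ± 0.215 (adjusted p 1.14e-05). Every low glucose library lay below every regular library for both genes. Hist1h1a stood at 3.41, 4.71 and 4.05 CPM in regular medium and at 1.39, 1.55 and 2.04 CPM in low glucose, a 2.45-fold fall (adjusted p 7.01e-06). Hist1h1d stood at 4.44, 6.15 and 4.29 CPM and at 2.06, 2.36 and 2.73 CPM, a 2.08-fold fall (adjusted p 1.91e-05). Each of these linker falls kept its call when any 1 of the 12 libraries was left out.

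Hist1h1c, which encodes another main somatic linker histone, was not called lower in DKO. Its levels were 7.33, 8.66 and 7.54 CPM in regular medium and 8.11, 10.9 and 9.83 CPM in low glucose. The ranges overlap, and the log2 difference of 0.28 ± 0.124 had an adjusted p of 0.0598 by edgeR. That difference lies close to the threshold: it was called, at 0.32, with DESeq2 or with its size factors in edgeR, and at 0.36 and 0.40 without DKO regular library 2 or DKO low glucose library 1. It was called at 0.28 without TKO regular library 1 or 3. In TKO the gene stood at 7.15, 5.74 and 4.59 CPM in regular medium and at 4.59, 4.56 and 5.01 CPM in low glucose (log2 difference −0.29 ± 0.16, adjusted p 0.16). That value became −0.45, with a call (adjusted p 0.0379), without TKO regular library 3 and −0.11 without TKO regular library 1. Hist1h1c was lower in TKO than in DKO in low glucose, where the groups do not overlap (−1.01 ± 0.14, adjusted p 1.47e-05). It was also lower in regular medium (−0.43 ± 0.142, adjusted p 0.0169), a call that was lost at −0.36 without DKO regular library 2 and at −0.28 without TKO regular library 3.

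**Figure D2:**
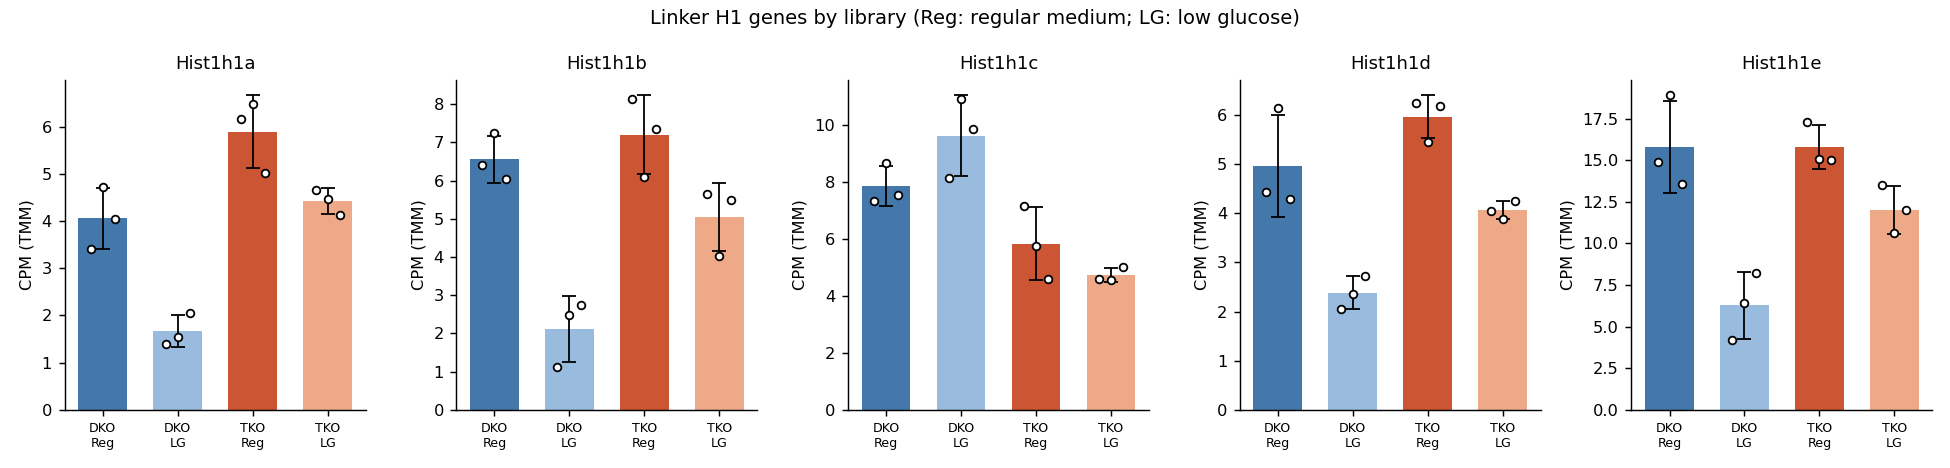
CPM (TMM-scaled) of each linker H1 gene in the 12 libraries, by line and medium, with means (bars), SD (error bars, n = 3) and libraries (points). Hist1h1a, Hist1h1b, Hist1h1d and Hist1h1e are lowest in DKO low glucose, and Hist1h1c has its highest mean there.

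Core genes with the largest falls in DKO came from the H2B, H3 and H4 classes. Hist1h2bm, an H2B gene, stood at 2.08, 1.87 and 1.87 CPM in regular medium and at 0.428, 0.461 and 0.387 CPM in low glucose, a 4.55-fold fall (log2 −2.18 ± 0.225, adjusted p 1.18e-06). Hist1h3b, an H3 gene, stood at 1.71, 1.89 and 1.23 CPM and at 0.265, 0.515 and 0.452 CPM, a 3.96-fold fall (adjusted p 4.69e-06). Hist1h4j, an H4 gene, stood at 1.33 ± 0.164 CPM (SD, n = 3) and at 0.383 ± 0.147 CPM, a 3.58-fold fall (adjusted p 4.04e-06). The low glucose libraries were all below the regular ones for these 3 genes. Hist1h2bl, another H2B gene, fell 3.45-fold (adjusted p 9.79e-05). Of the genes with the highest CPM in their class, Hist1h4i stood at 12.1, 12.4 and 11.6 CPM and at 5.58, 6.62 and 5.76 CPM, a 2.02-fold fall (adjusted p 2.66e-05). Hist1h4d stood at 3.88, 4.03 and 3.19 CPM and at 2.18, 2.74 and 2.95 CPM, a 1.41-fold fall (adjusted p 0.013). Its call was lost without DKO regular library 2 (−0.43) or DKO low glucose library 1 (−0.37). The remaining falls among the 3 H2A, H2B, H3 and H4 genes of highest CPM lay between 1.58-fold for Hist1h2be and 3.08-fold for Hist1h2ak, apart from Hist2h2be and Hist3h2a.

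Hist2h2be and Hist3h2a had the smallest differences among these core genes. Hist2h2be, an H2B gene known from olfactory neurons, is a member by its symbol. Its transcript held no stem-loop match and has a poly(A) signal near its annotated end, so it may not be replication-dependent. Hist2h2be stood at 13, 12.6 and 12.3 CPM in DKO regular and at 11.5, 11 and 10.6 CPM in DKO low glucose. Its fall was 1.15-fold (log2 −0.20 ± 0.0588, adjusted p 0.01) and was not called without the low-count filter (−0.15). Hist3h2a, an H2A gene of the chromosome 11 cluster, stood at 5.62, 6.48 and 5.07 CPM and at 5.89, 6.21 and 6.52 CPM, a log2 difference of 0.12 ± 0.0913 (adjusted p 0.277) with overlapping ranges.

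**Figure D3:**
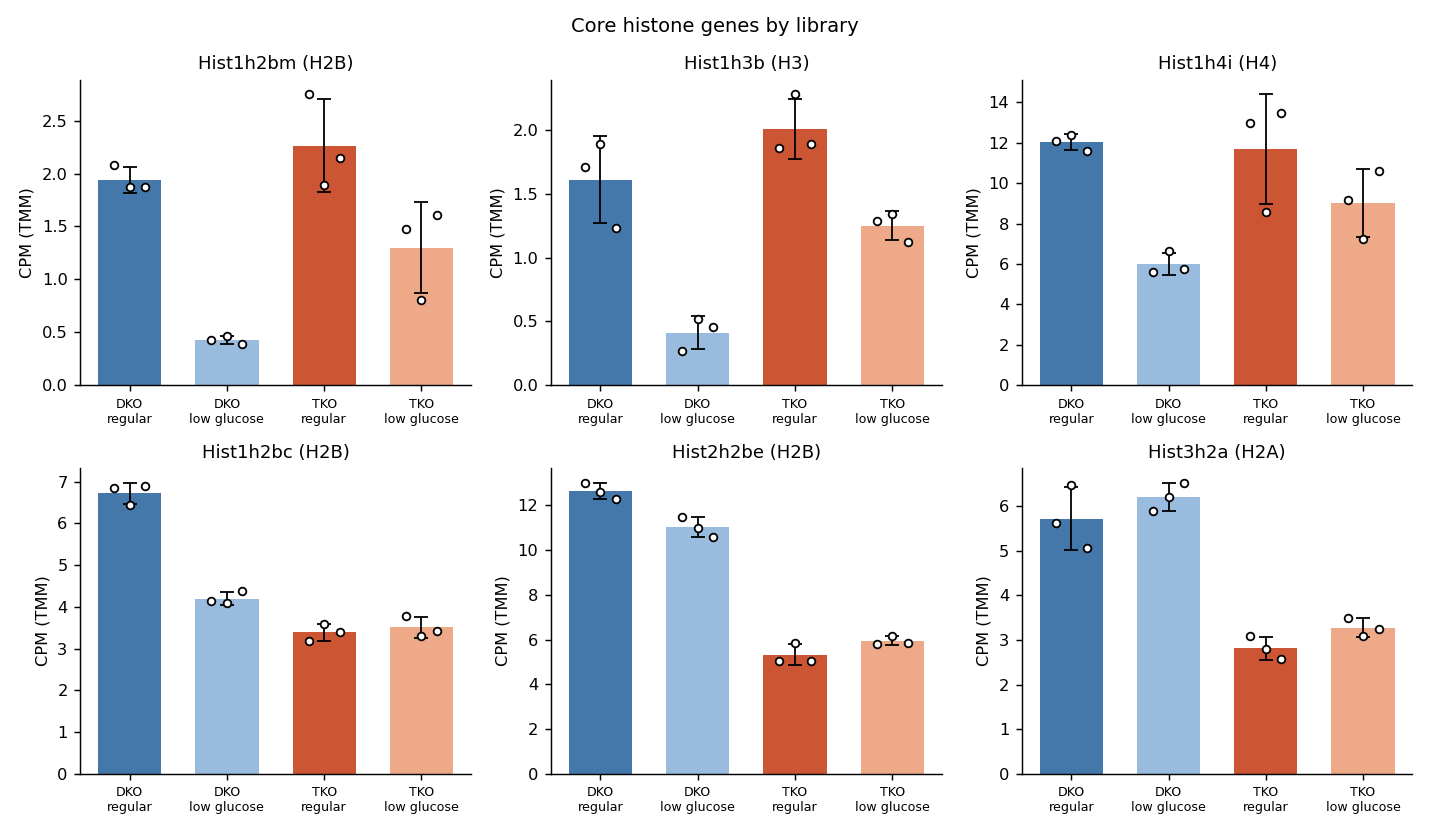
CPM (TMM-scaled) of 6 core histone genes in the 12 libraries, with means (bars), SD (error bars, n = 3) and libraries (points). Hist1h2bm, Hist1h3b and Hist1h4i are lowest in DKO low glucose, whereas Hist2h2be and Hist3h2a differ mainly between the lines.

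In TKO cells fewer histone genes passed the test. The TKO regular libraries held 25908668 to 30874107 counts and the DKO regular libraries 45914440 to 56260867. Genes deviated from their group mean by a median of 0.0478 to 0.0941 log2 in TKO libraries and 0.0242 to 0.0343 in DKO libraries. The part of depth and spread in the number of calls was not tested. There 25 of 56 members fell, where 17.9% of all genes tested fell and 39.9% changed in either direction, with a median log2 difference of −0.60 over the members and 0.01 over all genes. The falls comprised 2 H1, 4 H2A, 7 H2B, 5 H3 and 7 H4 genes. Without TKO regular library 1, the count was 9. edgeR called none higher, none had an unadjusted p under 0.05 in that direction, and DESeq2 called none either. The groups did not overlap for 34 members that were lower, against 18.3% of all genes, and for 1 that was higher, Hist3h2a, against 24.2%. The comparisons of medium in DKO and in TKO share no library. Of the 25 genes that fell in TKO and the 48 that fell in DKO, 23 fell in both, among them Hist1h1a, Hist1h1d, Hist1h2bm, Hist1h3b and Hist1h4j. Since 48 of the 56 members fell in DKO, most of the 25 had to be shared in any case. Of all genes tested, 17.9% fell in TKO and 31.1% in DKO, and the share that fell in both was not counted. Hist1h2ac and Hist1h4h passed the test in TKO and not in DKO, and the responses were not shown to differ (interaction −0.42, adjusted p 0.517, and −0.50, adjusted p 0.152).

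Hist1h4j had the largest fall in TKO, from 1.69, 1.73 and 1.73 CPM to 0.752, 0.671 and 0.816 CPM, 2.26-fold (adjusted p 4.72e-04). Hist1h2ac fell 2.12-fold (adjusted p 0.0113), Hist1h2ab 2.04-fold (adjusted p 0.0119) and Hist1h2an 2.01-fold (adjusted p 0.0146). These 3 H2A calls rest on single libraries. That of Hist1h2ac was lost without TKO regular library 3 or TKO low glucose library 3, that of Hist1h2ab without TKO regular library 1 or 3, and that of Hist1h2an without TKO regular or low glucose library 1. Among linker genes, Hist1h1d fell from 6.24, 5.46 and 6.19 CPM to 4.05, 3.89 and 4.26 CPM (log2 −0.55 ± 0.144, adjusted p 0.00814). Hist1h1a stood at 6.17, 6.48 and 5.02 CPM and at 4.66, 4.47 and 4.12 CPM (−0.41 ± 0.143, adjusted p 0.0345), and its call was lost in 5 of the 12 fits with 1 library left out, with values of −0.34 to −0.46. Those 5 left out DKO low glucose library 2, TKO regular library 1 or 2, or TKO low glucose library 1 or 3. Hist1h1e stood at 17.3, 15.1 and 15 CPM and at 13.5, 10.6 and 12 CPM, without overlap, and did not pass the adjustment (−0.38 ± 0.179, adjusted p 0.108). Hist1h1b stood at 8.14, 6.09 and 7.36 CPM and at 5.66, 4.03 and 5.48 CPM (−0.48 ± 0.202, adjusted p 0.0748). It was called lower at −0.45 without DKO low glucose library 1, at −0.58 without TKO regular library 2 and at −0.51 without the low-count filter, with values of −0.38 to −0.58 over the 12 fits with 1 library left out.

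**Figure D4:**
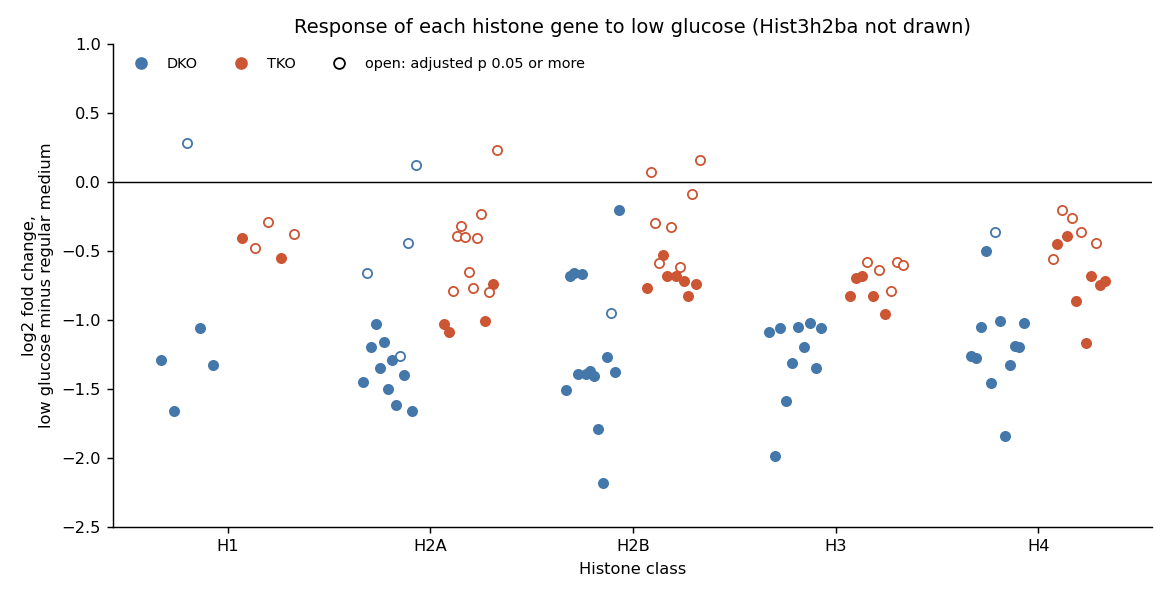
Fitted log2 difference between low glucose and regular medium for 55 of the 56 histone genes by class, in DKO and in TKO; each point is a gene and open points had an adjusted p of 0.05 or more. Most DKO values lie between −2.18 and −0.5 and most TKO values between −1.17 and 0, and Hist3h2ba, with 1 count in all TKO libraries, is not drawn.

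The difference between the responses of the lines was tested as an interaction. It was positive, a smaller fall or none in TKO, for 13 members (17.6% of all genes tested) and negative for 1 (12.1%), with 29.6% of all genes called in either direction. The median was 0.66 over the members and 0.03 over all genes. The positive ones were 3 linker genes (Hist1h1a, Hist1h1b and Hist1h1e), Hist1h2ak, 4 H2B genes (Hist1h2bc, Hist1h2bl, Hist1h2bm and Hist2h2be), Hist1h3b and 4 H4 genes (Hist1h4b, Hist1h4c, Hist1h4f and Hist1h4i). Hist1h2bm, which went from 2.75, 1.89 and 2.15 CPM to 1.48, 0.805 and 1.61 CPM in TKO, had an interaction of 1.46 ± 0.31 on the log2 scale (adjusted p 0.00289). Hist1h2bc, an H2B gene, had the smallest adjusted p. It stood at 6.84, 6.44 and 6.89 CPM in DKO regular and 4.14, 4.09 and 4.37 CPM in DKO low glucose, against 3.19, 3.58 and 3.39 CPM and 3.79, 3.31 and 3.43 CPM in TKO. It fell in DKO without overlap, the TKO libraries overlapped, and the interaction was 0.74 ± 0.119 (adjusted p 3.85e-04). For the remaining 42 members the responses were not shown to differ.

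Between the lines in regular medium, 17 members were higher in TKO (28.3% of all genes tested were) and 5 were lower (33.4%), with 61.7% of all genes called in either direction. The median log2 difference was 0.31 over the members and −0.01 over all genes. The count of higher members moved to 10 without DKO regular library 3 and to 11 without TKO regular library 1. H4 gave 6 of the 17, H2B 4, H2A and H3 3 each and H1 1. The groups did not overlap for 16 higher and 6 lower members, against 32.3% and 37% of all genes. In low glucose 39 members were higher in TKO (37.2% of all genes) and 5 lower (37.4%), with 74.6% of all genes called in either direction and a median of 1.03 over the members and 0.00 over all genes. The groups did not overlap there for 40 higher and 5 lower members, against 37.3% and 37.9%. By class, 4 of 5 H1, 5 of 14 H2A, 12 of 15 H2B, 7 of 10 H3 and 11 of 12 H4 genes were higher in TKO in low glucose. The core sums differed by a log2 ratio of 0.14 in regular medium and 0.53 in low glucose, and the linker sums by 0.05 and 0.46. With 1 library left out, the regular medium value for the linker sums ran from −0.03 without TKO regular library 1 (−0.01 without DKO regular library 3) to 0.18 without DKO regular library 2 and so turned direction. That for the core sums ran from 0.07 without TKO regular library 1 (0.08 without DKO regular library 3) to 0.23 without DKO regular library 2. In low glucose the linker value was 0.30 without DKO low glucose library 1 and at most 0.58, and the core value 0.43 to 0.58. From the deposited TPM the core values were 0.34 and 0.83. This comparison shares the DKO low glucose libraries with the DKO response above, so the values of each are given side by side and neither supports the other. In the authors' deposited table, 15 members were higher and 5 lower in TKO at adjusted p under 0.05 in regular medium (median log2 0.34), and 38 were higher and 4 lower in low glucose (median 1.0).

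The comparisons of the lines in the 2 media share no library, and 15 members were higher in TKO in both: Hist1h1a, Hist1h2ai, Hist1h2al, Hist1h2bb, Hist1h2bf, Hist1h2bg, Hist1h3a, Hist1h3c, Hist1h4a, Hist1h4b, Hist1h4d, Hist2h2bb, Hist2h3b, Hist2h4 and Hist4h4. Of all genes tested, 28.3% were higher in regular medium and 37.2% in low glucose, and the share higher in both was not counted. Hist4h4, the H4 gene of chromosome 6, stood at 0.474, 0.473 and 0.403 CPM in DKO and 1.25, 0.904 and 0.912 CPM in TKO in regular medium, 2.28-fold higher in TKO (adjusted p 2.53e-04). In low glucose it was 2.81-fold higher (adjusted p 2.05e-04). Hist2h2bb, an H2B gene of chromosome 3, stood at 2.28, 2.82 and 1.56 CPM in DKO and 4.24, 4.72 and 4.10 CPM in TKO in regular medium, 1.97-fold higher (adjusted p 0.00122). It was 3.07-fold higher in low glucose (adjusted p 1.13e-04). In neither gene did the lines overlap. For Hist2h2bb 0.0% of the 50-base stretches are unique in the transcript set, and for Hist1h2ai, named next, 9.9%, so the counts of both are uncertain. Hist1h2ai was 2.04-fold higher in TKO in regular medium (adjusted p 0.0129) and 2.93-fold in low glucose (adjusted p 0.00455). The regular medium call was lost without DKO regular library 3 (0.85) or TKO regular library 2 (0.67). Linker Hist1h1a was 1.44-fold higher in TKO in regular medium (adjusted p 0.00413) and 2.65-fold in low glucose (adjusted p 2.61e-06).

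Hist1h2al had the largest excess in TKO, but it met the count rule through TKO libraries only, so an excess there was built into its membership. It had 2, 1 and 3 counts in DKO regular libraries and 32, 26 and 20 in TKO regular libraries, a ratio of 22.4 (95% counting interval 9.84 to 62.9). In low glucose it had 1, 1 and 0 counts in DKO and 27, 25 and 30 in TKO, a ratio of 51 (13.7 to 428). In GENCODE this symbol is a processed pseudogene of 339 bases outside the histone cluster, with 32.4% of its 50-base stretches unique in the transcript set. For Hist1h2al 1 CPM stood for 0.665 TPM, and for Hist2h2be, with a transcript of 2620 bases, for 0.735 TPM. The gene that the authors counted under this symbol may thus be another, longer annotation, so its locus and its counts are uncertain.

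Members lower in TKO in both media were Hist1h1c, Hist1h2bc, Hist2h2be, Hist3h2a and Hist3h2ba. Of all genes tested, 33.4% were lower in regular medium and 37.4% in low glucose, and the share lower in both was not counted. Hist2h2be stood at 5.05, 5.85 and 5.05 CPM in TKO regular and at 5.80, 6.17 and 5.85 CPM in TKO low glucose. It was 2.38-fold lower than in DKO in regular medium (adjusted p 1.01e-09) and 1.87-fold lower in low glucose (adjusted p 2.17e-08). Hist3h2a stood at 3.08, 2.79 and 2.57 CPM and at 3.50, 3.09 and 3.24 CPM in TKO, 2.03-fold lower than in DKO in regular medium (adjusted p 2.23e-06) and 1.88-fold lower in low glucose (adjusted p 2.34e-06). For both genes every TKO library lay below every DKO library. Hist1h2bc was 1.99-fold lower in TKO in regular medium (adjusted p 8.14e-08). In low glucose it was 1.19-fold lower (log2 −0.25, adjusted p 0.0152), a call lost with DESeq2 (−0.23) and without any of the DKO low glucose libraries (−0.21 to −0.22) or TKO low glucose library 3 (−0.22). Hist3h2ba, the H2B gene beside Hist3h2a, had 24, 23 and 23 counts in DKO regular libraries and none in the 3 TKO regular libraries. With a floor of 3 counts over the group, it was at least 13.5-fold lower in TKO. In low glucose it had 14, 23 and 19 counts in DKO and 0, 1 and 0 in TKO, a ratio of 45.0 (95% counting interval 7.75 to 1810). Counting intervals and floors cover counting error only. Fitted values of Hist3h2ba and Hist1h2al rest on very few counts in 1 line. Each met the count rule only through libraries of the other line, so a difference between the lines was built into its membership. The counts of members higher or lower in TKO include these genes. Without these genes the medians over the other 54 members were −1.26 for the DKO response, −0.61 for the TKO response, 0.66 for the interaction, and 0.31 and 1.03 for TKO against DKO in regular and low glucose medium. The H2A median of the DKO response was −1.29 over the 13 other H2A genes.

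**Figure D5:**
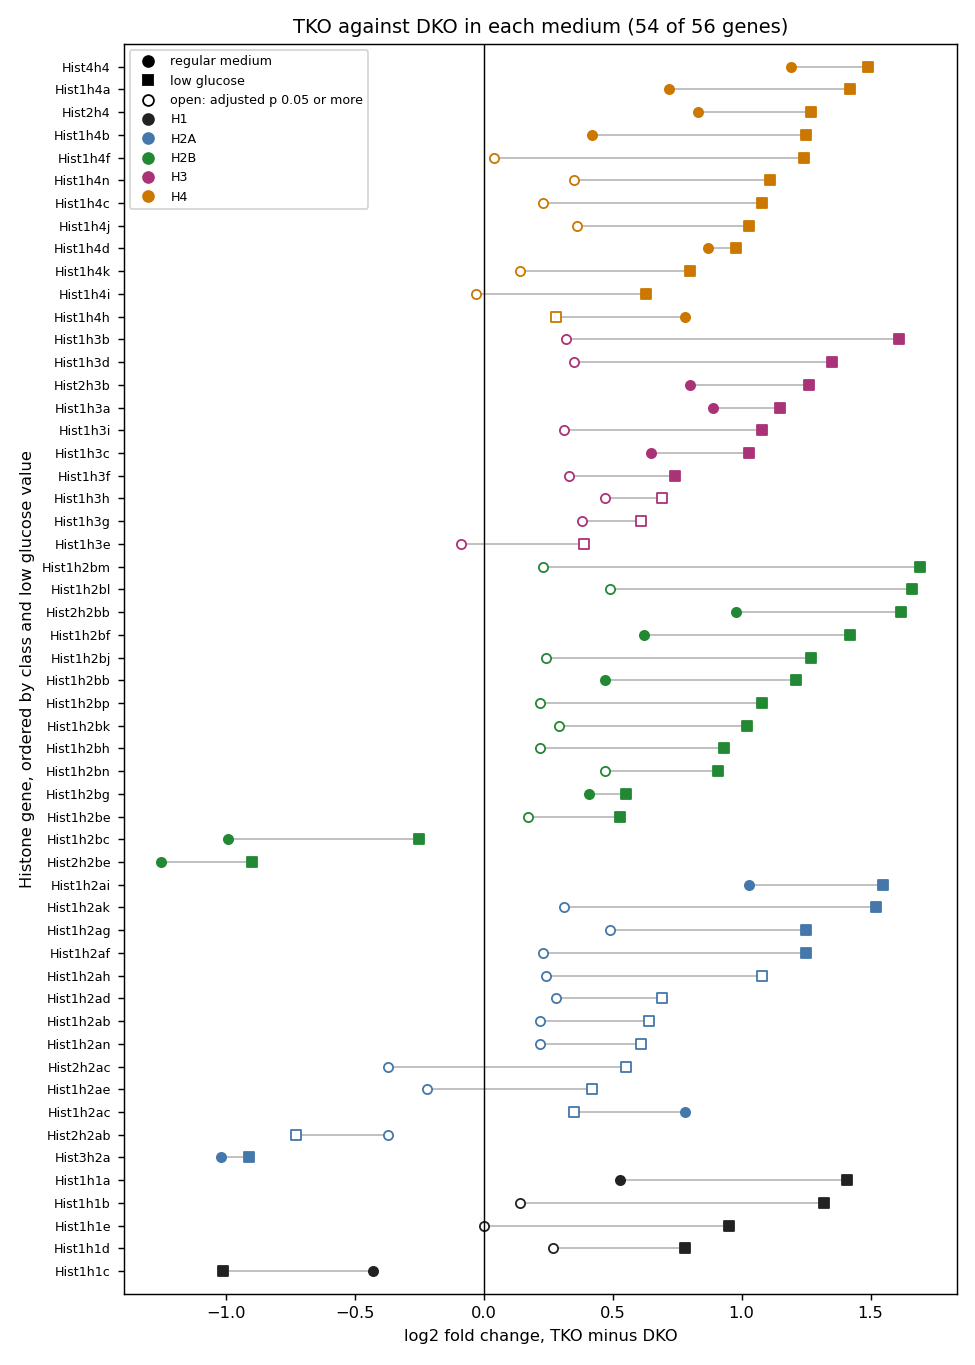
Fitted log2 difference between TKO and DKO for 54 of the 56 histone genes, in regular medium (circles) and low glucose (squares), coloured by class; open symbols had an adjusted p of 0.05 or more. Hist1h1c, Hist1h2bc, Hist2h2be and Hist3h2a are lower in TKO in both media; Hist3h2ba and Hist1h2al lie beyond the scale and are not drawn.

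Members were also grouped by the annotated 3′ end of the transcript used for each gene, with the values known and without a test. These transcripts need not be what the authors counted. For Hist1h1d, with a transcript of 7425 bases here, 1 CPM stood for 3.6 TPM. For Hist1h1a, with 741 bases, it stood for 3.86 TPM. Annotated ends may thus lie outside the counted bases. The DKO response differed in spread between these groups. Of 13 members with a poly(A) signal near the end, 8 fell in low glucose, with a median of −0.95 and a range from −1.84 for Hist1h4j to 0.28 for Hist1h1c. Of 29 members with an annotated 3′ UTR and no such signal near its end, 28 fell, with a median of −1.28 and a range from −2.18 to −0.50. Of 14 members with no annotated 3′ UTR of this length, 12 fell, with a median of −1.35. Among the 5 genes lower in TKO in both media, Hist1h1c, Hist2h2be, Hist3h2a and Hist3h2ba belong to the first group and Hist1h2bc to the second. The first group also held genes higher in TKO. Of its 13 members, 4 were higher and 4 lower in regular medium, and 7 were higher and 4 lower in low glucose. Of the 29 in the second group, 10 were higher and 1 lower, and 22 were higher and 1 lower.

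Many members are near copies of each other, and how the authors counted reads with several matches is not given in the sources used here. Fewer than 50% of 50-base stretches were unique in the transcript set for 26 of the 56 members. The shares cover the GENCODE transcript used for each gene, which may differ from the bases that were counted. For Hist2h2bb and Hist2h3b the share was 0.0%. In DKO, 24 of these 26 fell in low glucose (median −1.34), as did 24 of the other 30 (median −1.05). In TKO, 11 of the 26 and 14 of the 30 fell (medians −0.68 and −0.50). Against DKO in low glucose, 17 of the 26 and 22 of the 30 were higher in TKO, and the 5 that were lower all belong to the 30. Values of single genes among the 26 are uncertain in how reads were shared between copies. Among them are genes given with values above: Hist1h3b (39.6% unique), Hist1h2bl (17.2%), Hist1h2ak (43.0%), Hist1h4b (24.1%), Hist1h2an (14.2%) and Hist1h2ab (42.0%).

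Most genes of the lists that act with these histones also fell in DKO. Over all genes tested, 31.1% fell and 31.6% rose in DKO, and 17.9% fell and 22% rose in TKO, and the counts that follow are to be read beside these shares. Of 28 DNA replication and S phase genes, 28 fell in DKO in low glucose (median −1.01) and 23 in TKO (median −0.26). Mcm7, a subunit of the replicative helicase, stood at 461 ± 4.38 CPM in DKO regular and 188 ± 1.57 in DKO low glucose, a log2 difference of −1.30 (adjusted p 1.79e-12), and at 526 ± 3.69 and 368 ± 1.51 CPM in TKO. The interaction was called positive for all 28 (17.6% of all genes tested), with a median of 0.75. Over the histone genes the median was 0.66, with 52 of 56 values above 0 and 13 called. The 56 histone genes summed to far fewer CPM than the 28 replication genes in every library. Of 20 histone chaperone genes, 17 fell and 1 rose in DKO (median −0.60), and 15 fell in TKO (median −0.26). Chaf1a, the large subunit of the assembly factor CAF-1, fell by 1.09 ± 0.0527 on the log2 scale in DKO (adjusted p 6.53e-10). Asf1b, which hands H3 and H4 to CAF-1, fell by 0.94 ± 0.0427 (adjusted p 3.88e-10).

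Of 28 genes of histone mRNA transcription, 3′ end processing and decay, 26 were tested, of which 19 fell and 3 rose in DKO (median −0.36). In TKO 10 fell and 2 rose (median −0.12). Casp8ap2, whose product FLASH joins the U7 snRNP at the histone cut site, fell by 0.74 ± 0.0568 in DKO (adjusted p 6.12e-08). Ccne1 and Ccne2, the E cyclins that drive histone transcription through NPAT, fell by 1.13 ± 0.0532 (adjusted p 5.38e-10) and 0.95 ± 0.0582 (adjusted p 6.48e-09). Ctif, a translation factor described for histone mRNA, was lower in TKO in regular medium (log2 −2.59 ± 0.139, adjusted p 6.53e-10). Of 11 replacement and other histone genes outside the rule, 9 were tested, of which 7 fell and 1 rose in DKO (median −0.42). The gene that rose was H1f0, the replacement linker histone of slowly dividing cells, from 16.4 to 25.6 CPM in DKO (log2 0.65 ± 0.0435, adjusted p 1.63e-08). In TKO it went from 25.4 to 33.1 CPM (0.38 ± 0.0439, adjusted p 1.65e-05). H2afx, whose product marks DNA breaks when phosphorylated, fell by 0.78 ± 0.0739 in DKO (adjusted p 5.15e-07), and Cenpa, the H3 variant of centromeres, by 0.88 ± 0.0805 (adjusted p 3.63e-07). H2afx is known to give both a stem-loop and a poly(A) form of its mRNA, and is 1 of the 10 genes without a Hist symbol that held a stem-loop match.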

How the data were processed

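The deposited counts are raw reads per gene symbol that the authors obtained after alignment to mm10 with STAR 2.7.3a, per the submitters' processing notes. Gene lengths behind the authors' deposited TPM, strand setting and treatment of multi-mapping reads are not given in the sources used here. The authors' deposited tables give log2 fold changes and adjusted p-values of TKO against DKO, with DESeq2 1.22.1 per the submitters' processing notes. Per the labels' protocols, strand-specific poly(A) libraries were made from 200 ng of total RNA.

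Counts were fitted with edgeR 4.0.16 (R 4.3.3, TMM, quasi-likelihood test, filterByExpr with count minimum 10 and total minimum 15) over all 12 libraries, with group means as the only terms and 8 residual degrees of freedom. p-values were adjusted by Benjamini-Hochberg over 11988 genes and called under 0.05. CPM used TMM-scaled totals. Alternatives were DESeq2 1.42.0, its size factors in edgeR, no filter, a replicate block, each library left out, and both TKO libraries numbered 2 left out, the last chosen after seeing the data. The fit was tested on simulated data. Replicates of a group differed by more than sampling noise. Stem-loops and poly(A) signals were searched in GENCODE M21, promoters in RefSeq. Members and lists were chosen with earlier results of these data known. Named with values are all H1 genes, the 3 genes of highest mean CPM in each core class, and the 4 largest called differences per direction in each comparison; of each further list, up to 4 genes of lowest adjusted p per comparison.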

Additional observations from a re-analysis of the deposited data

Results flagged for a closer look

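For 14 histone genes the response to low glucose differed between the lines by the interaction test (edgeR's quasi-likelihood test, adjusted p under 0.05 over all genes tested). They are 14 of 56 members, a share below the 29.6% of all genes tested that were called in either direction. Each value is the log2 response in TKO less that in DKO. Among linker genes the difference was 0.88 for Hist1h1a, 1.18 for Hist1h1b, 0.95 for Hist1h1e and −0.58 for Hist1h1c. Hist1h1c had an adjusted p of 0.045, and its call was lost in 8 of the 12 fits with 1 library left out, at values from −0.40 to −0.59. Only leaving out DKO regular library 2, DKO low glucose library 1, TKO regular library 3 or TKO low glucose library 3 kept it. Among H2A and H2B genes the difference was 1.21 for Hist1h2ak, 0.74 for Hist1h2bc, 1.17 for Hist1h2bl, 1.46 for Hist1h2bm and 0.35 for Hist2h2be. The call of Hist1h2ak was lost at 0.98 without TKO low glucose library 1. That of Hist1h2bl was lost in 5 of 12 such fits, which left out DKO regular library 2, DKO low glucose library 1 or 3, TKO regular library 3 or TKO low glucose library 1, and that of Hist2h2be was lost at 0.32 without TKO regular library 1 or 3. Among H3 and H4 genes it was 1.29 for Hist1h3b, 0.83 for Hist1h4b, 0.85 for Hist1h4c, 1.20 for Hist1h4f and 0.66 for Hist1h4i. The call of Hist1h4i was lost in 6 of 12 such fits, at values from 0.53 to 0.66, which left out DKO regular library 1 or 2, DKO low glucose library 1 or 3, or TKO low glucose library 1 or 3, and that of Hist1h4c was not followed through these fits.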

How the results depend on the processing

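For the 30 histone genes named by rule, 2432 of 2550 values under an alternative kept their direction and side of the threshold, 77 lost a call, 41 gained one and none reversed. The count of members higher in DKO in low glucose was 0 and became 1, Hist1h1c, with DESeq2, with its size factors in edgeR, without the low-count filter and without the TKO libraries numbered 2 (0 to 1 over single libraries left out). From the deposited TPM, the core sums gave log2 ratios of TKO to DKO of 0.34 in regular medium and 0.83 in low glucose; TPM weights genes by length. With 1 library left out, members higher in TKO numbered 10 to 23 in regular medium, members that fell in TKO 9 to 29, members with a positive interaction 9 to 18 and members with a negative one 0 to 2; the cause was not tested. Members that fell in DKO numbered 44 to 50. Same-numbered libraries of the lines or media were not shown to be paired, since the correlations of their deviations did not all exceed 0.1 in any comparison (0.0652, 0.328 and 0.229 for the media in TKO). For the media in TKO, libraries of unlike number gave −0.317 to 0.144. With the replicate number as a block, 48 members fell in DKO, 26 in TKO, and 17 and 38 were higher in TKO in regular and low glucose medium. Without the filter, 34 fell in TKO. The 56 members together had as few as 2498 counts in a library, which limits calls of single genes.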
